A study of Mus musculus with 13 samples.

Results

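The ligands of the epidermal growth factor (EGF) receptor and the receptors themselves were followed through 13 keratinocyte libraries. Members were the rows of the deposited count table whose gene symbol was 1 of 9 listed names: the 6 ligands Areg, Hbegf, Ereg, Tgfa, Btc and Epgn, and the 3 receptors Egfr, Erbb2 and Erbb3. All 9 were found, each in 1 row of the 25746 genes in the table, and all 9 passed the filter on low counts that left 16051 genes for testing.

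EGF family ligands are made as membrane-bound precursors, and proteases called sheddases release their active domain. The released ligand binds Egfr, or for some ligands also Erbb4, and the occupied receptor pairs with itself or with another ERBB receptor. Erbb2 binds no known ligand and acts as the preferred partner, while Erbb3 binds neuregulins and has little kinase activity of its own. In epidermis Egfr is most abundant in the basal layer, where its signalling favours proliferation and restrains differentiation, and Areg, Hbegf, Tgfa and Epgn are known as keratinocyte products in wounds and psoriasis.

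The RNA was from sorted interfollicular keratinocytes, that is, epidermal cells outside the hair follicles, of C57/BL6 mice. All mice carried floxed Il12rb2 alleles, so no wild-type allele entered any comparison. Il12rb2fl/fl mice without Cre, called floxed control here, gave 3 untreated libraries and 3 libraries after topical Aldara, a cream with 5% imiquimod, for 1 day. K14Cre/+ Il12rb2fl/fl mice, called Il12rb2-deleted here, gave 4 untreated and 3 Aldara libraries. Their Cre is driven by the keratin 14 promoter, which acts in keratinocytes of the epidermis and of the hair follicle. Imiquimod, a Toll-like receptor agonist, serves as a mouse model trigger of inflammation resembling psoriasis. Neither age nor sex was given in the sources used here, and no group with vehicle cream or with Cre alone was analysed here. Since no label ties a replicate to its own animal, the p-values refer to the spread among these samples alone, and that spread may be technical.

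Library totals ran from 5830034 to 22232478 counts. The targeted gene, Il12rb2, read 17.1 to 78.8 CPM (counts scaled to a common library size) in untreated floxed control and 8.52 to 25.6 CPM in untreated Il12rb2-deleted libraries, so those groups overlapped. It read 1.98 to 8.14 CPM in floxed control after Aldara and at most 1.64 CPM in Il12rb2-deleted libraries after Aldara. In 3 untreated libraries (floxed control replicate 2 and Il12rb2-deleted replicates 1 and 2) the predicted gene Gm10800 took 5.21 to 14.2% of all counts, against at most 2.22% elsewhere, and Il12rb2-deleted Aldara replicate 1 stood apart from its group for several members. Markers of keratinocyte layers and of some other cells moved with Aldara. The summed CPM of 8 basal keratinocyte markers was 25800 to 68300 in the 7 untreated and 12900 to 21500 in the 6 Aldara libraries, and that of 8 suprabasal markers was 2520 to 5990 against 266 to 914. Of these 8 suprabasal markers, 5 fell and 1 (Ivl) rose in the averaged comparison, where 11.9% of all genes fell and 13% rose. The 8 sebaceous markers summed to 452 to 2480 CPM untreated and 4470 to 8750 CPM after Aldara, and all 8 rose in the averaged comparison. For the 6 fibroblast markers the sums were 776 to 1870 and 10.6 to 308 CPM. The 8 hair follicle markers summed to 571 to 3320 CPM untreated and 1350 to 2900 CPM after Aldara. On average Sox9 of that list rose, and Cd34 and Krt25 fell. The 5 endothelial and mural markers summed to 32.9 to 185 CPM untreated and 13.6 to 50.7 CPM after Aldara. The 6 Langerhans cell and macrophage markers summed to 35.3 to 283 CPM untreated and 57.3 to 479 CPM after Aldara. Cd207 of that list, at most 4.48 CPM, fell on average. The T cell markers in the table summed to 18.8 to 46.1 CPM untreated and 6.83 to 14.9 CPM after Aldara, and the neutrophil markers to 0.544 to 20.0 and 18.8 to 183 CPM. Within the neutrophil list, S100a8 and S100a9 read 47.3 to 141 and 21.2 to 37.8 CPM in Il12rb2-deleted Aldara libraries. Cxcr2 reached 9.31 CPM there, while Csf3r and Retnlg stayed at or below 0.792 and 0.533 CPM in every group. In bulk RNA, fewer cells of a type and less RNA per cell cannot be told apart, and the part of these marker shifts in the results below was not tested.

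Per kilobase of exon, Epgn, which encodes epigen, was the most abundant ligand transcript in all 13 libraries. Its level, in CPM per kilobase (RPKM), was 161 ± 71.8 (SD, n = 3) in untreated floxed control keratinocytes. Hbegf, which encodes heparin-binding EGF-like growth factor, stood at 19.8 ± 8.34 RPKM, and Areg, which encodes amphiregulin, at 8.73 ± 6.18 RPKM. Hbegf was above Areg within each of the 3 libraries, although their ranges overlapped, at 10.2 to 25.1 RPKM for Hbegf and 3.52 to 15.6 RPKM for Areg. With the length of the longest transcript in place of all exons, Hbegf ran from 17.1 to 42.0 RPKM and no longer overlapped with Areg. Tgfa, the gene of transforming growth factor alpha, followed at 2.31 ± 0.16 RPKM, below every Areg value. Btc, the betacellulin gene, at 0.74 ± 0.92 RPKM, and Ereg, the epiregulin gene, at 0.17 ± 0.08 RPKM, were the least abundant and overlapped with each other.

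The sum of the 6 ligands was 193 ± 81.9 RPKM (SD, n = 3) in untreated floxed control and 697 ± 434 RPKM (SD, n = 4) in untreated Il12rb2-deleted libraries. After Aldara it was 139 ± 84.2 RPKM (SD, n = 3) in floxed control and 136 ± 13.5 RPKM (SD, n = 3) in Il12rb2-deleted libraries. Epgn made up 61.1 to 93.2% of the sum in every library. Its mean share was 83.2 ± 3.27% and 87.7 ± 5.36% in the untreated floxed control and Il12rb2-deleted groups, and 75.2 ± 12.6% and 69.0 ± 6.99% in the corresponding Aldara groups. Without Epgn, the other 5 ligands summed to 31.8 ± 12.7 and 70.3 ± 25.0 RPKM untreated, and to 29.7 ± 19.1 and 41.6 ± 5.35 RPKM after Aldara. The Tgfa share was the one that separated the treatments: it was 0.504 to 2.07% in the 7 untreated libraries and 2.11 to 10.9% in the 6 Aldara libraries. Those ranges nearly touch, at floxed control untreated replicate 1 (2.07%) and floxed control Aldara replicate 2 (2.11%). This share also depends on Epgn, which made up most of the sum. The CPM of Tgfa itself overlapped between treatments, at 13.9 to 53.2 untreated and 28.2 to 87.1 after Aldara.

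**Figure D1:**
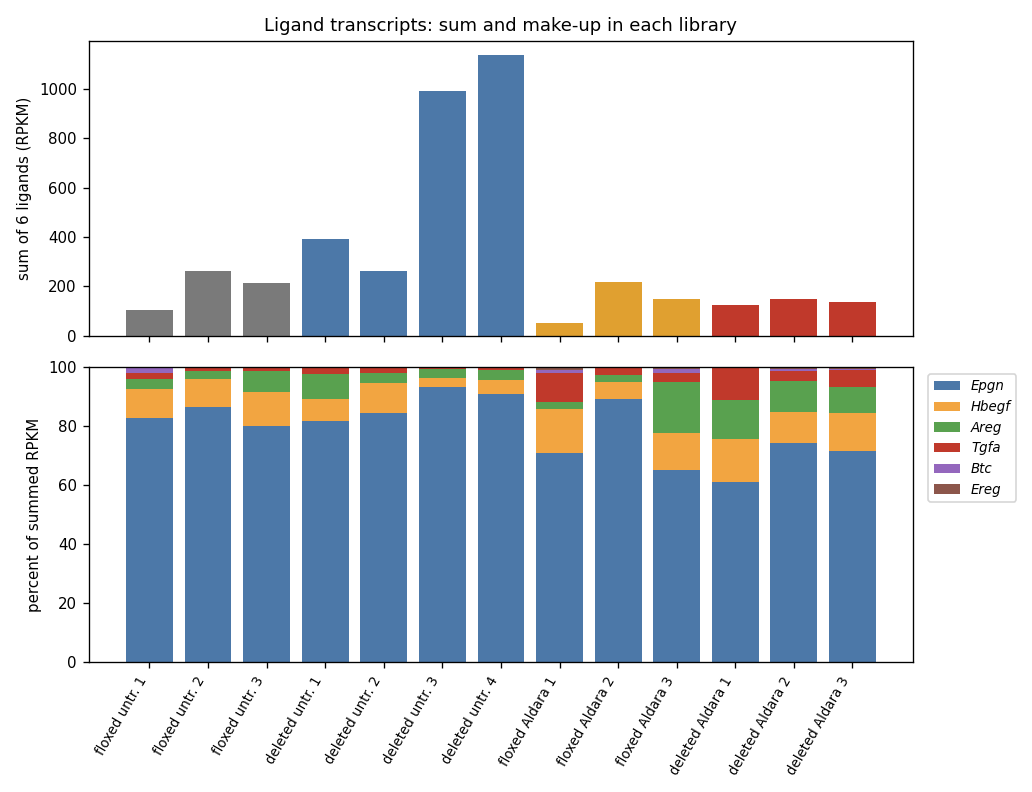
Top: sum of the 6 ligand transcripts in RPKM for each of the 13 libraries, coloured by group. Bottom: percent of that sum taken by each ligand. Epgn fills 61.1 to 93.2% of every bar, and the highest sums, 993.9 and 1140 RPKM, belong to Il12rb2-deleted untreated replicates 3 and 4.

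Epgn (ENSMUSG00000035020) lies on chromosome 5 of GRCm38 at chr5:91027464-91035215, plus strand, next to Ereg (chr5:91074622-91093646, plus), Areg (chr5:91139599-91148432, plus) and Btc (chr5:91357261-91402994, minus). The intervals between neighbours are 39406, 45952 and 208828 bases. Tgfa is at chr6:86195223-86275719 (plus). Egfr (chr11:16752203-16918158, plus) and Erbb2 (chr11:98412470-98437716, plus) share chromosome 11, and Erbb3 is at chr10:128567523-128589652 (minus). RefSeq promoter windows of GRCm38.p6 were matched for 6 members: Epgn, Areg, Btc, Tgfa, Egfr and Erbb2. The 5 shown are those of the most abundant ligand, of its neighbour Areg, of the ligand that rose in the averaged comparison, and of 2 receptors of which 1 fell and 1 did not pass the test. They end at the base before the first annotated transcript start, run 5′ to 3′ on the gene's strand, and carry in capitals the motifs found. Epgn is chr5:91027267-91027463, Areg is chr5:91139349-91139598, Tgfa is chr6:86194972-86195221, Egfr is chr11:16751953-16752202 and Erbb2 is chr11:98412234-98412469, all on the plus strand.
Epgn: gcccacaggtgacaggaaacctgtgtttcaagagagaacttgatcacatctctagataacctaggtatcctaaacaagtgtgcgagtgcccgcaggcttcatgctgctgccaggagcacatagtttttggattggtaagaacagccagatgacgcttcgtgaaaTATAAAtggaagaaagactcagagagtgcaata
Areg: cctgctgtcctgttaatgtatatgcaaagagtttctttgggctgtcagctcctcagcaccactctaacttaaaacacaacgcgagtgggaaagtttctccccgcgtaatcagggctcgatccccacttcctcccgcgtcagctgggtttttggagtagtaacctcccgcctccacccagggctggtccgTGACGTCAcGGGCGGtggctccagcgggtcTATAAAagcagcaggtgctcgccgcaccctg
Tgfa: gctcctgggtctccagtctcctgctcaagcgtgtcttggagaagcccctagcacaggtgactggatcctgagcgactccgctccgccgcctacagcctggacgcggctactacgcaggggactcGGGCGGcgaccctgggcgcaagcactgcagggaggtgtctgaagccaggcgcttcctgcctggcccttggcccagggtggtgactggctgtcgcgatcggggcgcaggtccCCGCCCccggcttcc
Egfr: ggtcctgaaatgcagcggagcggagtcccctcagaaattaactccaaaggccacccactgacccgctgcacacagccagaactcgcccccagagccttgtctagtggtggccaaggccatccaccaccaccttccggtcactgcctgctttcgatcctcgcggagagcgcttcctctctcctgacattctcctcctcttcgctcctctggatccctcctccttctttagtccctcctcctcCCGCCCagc
Erbb2: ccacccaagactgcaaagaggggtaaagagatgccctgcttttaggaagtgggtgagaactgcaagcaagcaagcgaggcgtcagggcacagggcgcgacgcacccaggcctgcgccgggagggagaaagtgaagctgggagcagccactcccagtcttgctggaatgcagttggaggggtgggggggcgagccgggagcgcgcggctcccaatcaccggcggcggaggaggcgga

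Both strands were searched for an AP-1 site (TGANTCA), a cyclic AMP response element (CRE, TGACGTCA), a STAT site (TTCNNNGAA), a TATA box (TATAAA) and a GC box (GGGCGG). Epgn held a TATA box 33 bases before its first annotated start. Areg held a CRE at 61, a GC box at 52 and a TATA box at 31 bases before its start, and none of these overlapped. The other hits were GC boxes, in Tgfa at 126 and 15 bases and in Egfr at 9 bases before the start. Erbb2 and Btc held none of the 5 motifs, and no AP-1 or STAT match was found in any of the 6 windows. Among 32851 RefSeq promoter windows of 250 bases, 6.75% held the AP-1 letters, 1.55% the CRE, 7.02% the STAT letters, 12.4% the TATA box and 32.7% the GC box. A match is a description of the letters, not evidence of binding.

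Epgn had the largest called change of the 9 genes in Il12rb2-deleted keratinocytes and on average. Its CPM was 153.9, 411.9 and 307.1 in untreated floxed control replicates 1 to 3, and 577.8, 403.4, 1674 and 1876 in untreated Il12rb2-deleted replicates 1 to 4. After Aldara it was 65.3, 353.2 and 174.1 CPM in floxed control and 135.6, 201 and 176.7 CPM in Il12rb2-deleted libraries. All 3 Il12rb2-deleted Aldara libraries lay below all 4 untreated ones of that genotype, while the floxed control groups overlapped. In Il12rb2-deleted keratinocytes Epgn fell 6.62-fold (log2 -2.73, SE 0.61, edgeR adjusted p = 0.00762). In floxed control the log2 change was -0.56 (SE 0.59, edgeR adjusted p = 0.66), which did not pass. Averaged over both genotypes it fell by 1.64 on the log2 scale (SE 0.42, edgeR adjusted p = 0.00959). The Aldara effects of the genotypes differed by -2.17 (SE 0.82), with an unadjusted p of 0.0189 and an edgeR adjusted p of 1, so a difference between genotypes was not shown. The untreated Il12rb2-deleted libraries with high Gm10800 (replicates 1 and 2) were also the lowest of that group in Epgn. Untreated floxed control replicate 2, with the highest Gm10800 share (14.2%), was instead the highest of its group at 411.9 CPM. Without the 3 libraries high in Gm10800 the log2 change in Il12rb2-deleted keratinocytes was -3.41 (edgeR adjusted p = 0.0043).

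Hbegf (chr18:36504927-36515805, minus strand), whose precursor is shed by ADAM proteases, fell in the averaged comparison. Its CPM was 49.3, 121.4 and 116.5 in untreated floxed control and 144.2, 129.1, 162.1 and 247 in untreated Il12rb2-deleted libraries. Values of 36.3, 59.2 and 87.9 CPM were found in floxed control after Aldara, and 86.4, 77.0 and 84.1 CPM in Il12rb2-deleted libraries after Aldara. As for Epgn, the treatments overlapped in floxed control and were apart in Il12rb2-deleted libraries. The averaged log2 change was -0.85 (SE 0.25, edgeR adjusted p = 0.0207). In Il12rb2-deleted keratinocytes alone it was -1.05 (SE 0.34, edgeR adjusted p = 0.0513) and in floxed control -0.65 (SE 0.36, edgeR adjusted p = 0.334). The change in Il12rb2-deleted keratinocytes was called with RLE factors (adjusted p = 0.0498), DESeq2 (adjusted p = 0.015), limma voom (adjusted p = 0.0415) and a robust dispersion (adjusted p = 0.0427). It was also called by edgeR without untreated floxed control replicate 1, untreated Il12rb2-deleted replicate 2, or floxed control Aldara replicate 1 or 3 (adjusted p = 0.0274 to 0.0438). By edgeR the averaged adjusted p was 0.061 when untreated floxed control replicate 2 was left out, 0.0556 without replicate 3 of that group, 0.0555 without floxed control Aldara replicate 1, and 0.0513 without the 3 libraries high in Gm10800, so that each of these omissions ended the call.

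Areg passed in no comparison. It read 4.27, 8.64 and 18.9 CPM in untreated floxed control, 40.3, 10.7, 35.2 and 49.6 CPM in untreated Il12rb2-deleted, 1.60, 6.74 and 31.3 CPM in floxed control after Aldara, and 20.1, 18.9 and 14.5 CPM in Il12rb2-deleted libraries after Aldara. Floxed control replicates after Aldara differed 19.6-fold among themselves, the widest spread of any member detected in all libraries of a group, while the 3 Il12rb2-deleted Aldara libraries lay within 1.38-fold. The averaged Aldara change was -0.31 on the log2 scale (95% interval -1.46 to 0.84, edgeR adjusted p = 0.732).

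Tgfa was the ligand that rose. Its CPM was 13.9, 15.6 and 15.7 in untreated floxed control and 32.7, 29.99 and 28.2 in floxed control after Aldara, so the groups did not overlap. Untreated Il12rb2-deleted libraries read 47.7, 29.1, 32.5 and 53.2 CPM and overlapped with the Aldara libraries of that genotype at 87.1, 35.4 and 50.4 CPM. The averaged log2 change was 0.76 (SE 0.22, edgeR adjusted p = 0.0206), a 1.69-fold rise. In floxed control alone it was 1.01 (SE 0.33, edgeR adjusted p = 0.0774), and in Il12rb2-deleted keratinocytes 0.50 (SE 0.30, edgeR adjusted p = 0.303). The floxed control change was called by DESeq2 (adjusted p = 0.0482) and by edgeR without Il12rb2-deleted Aldara replicate 1 (adjusted p = 0.0354). Replicate 1 of the Il12rb2-deleted Aldara group, at 87.1 CPM, weighed on both: without it the log2 change in that genotype was 0.08 and the averaged one 0.54 (edgeR adjusted p = 0.0637). The averaged call was also lost without floxed control Aldara replicate 1 (adjusted p = 0.0507), without the 3 libraries high in Gm10800 (adjusted p = 0.0978) and with limma voom (adjusted p = 0.05). Reads of Gm43917, a provisional gene model on the opposite strand, cannot be told apart from those of Tgfa.

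Ereg and Btc were near the limit of detection. Ereg ran from 0.37 to 1.04 CPM in untreated floxed control and from 1.09 to 2.88 CPM in untreated Il12rb2-deleted libraries. After Aldara it ran from 0.58 to 3.26 CPM in floxed control, and it was 0, 4.14 and 4.10 CPM in the Il12rb2-deleted libraries. The count of 0 in Il12rb2-deleted Aldara replicate 1 allows a level of up to 0.307 CPM, taken as 3 counts. Btc was at 0 in 3 libraries (floxed control untreated replicate 3, Il12rb2-deleted untreated replicate 3 and Il12rb2-deleted Aldara replicate 1), which allows up to 0.135, 0.233 and 0.307 CPM, and it reached 9.64 CPM in floxed control Aldara replicate 3. Such limits cover counting error only, and reads of this protocol are not independent molecules. The averaged log2 change of Ereg was 1.10 (95% interval -0.81 to 3.02) and that of Btc 0.08 (95% interval -2.37 to 2.54), so neither direction was resolved. Ereg overlaps the antisense gene Gm19610, whose reads cannot be told apart without strand.

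**Figure D2:**
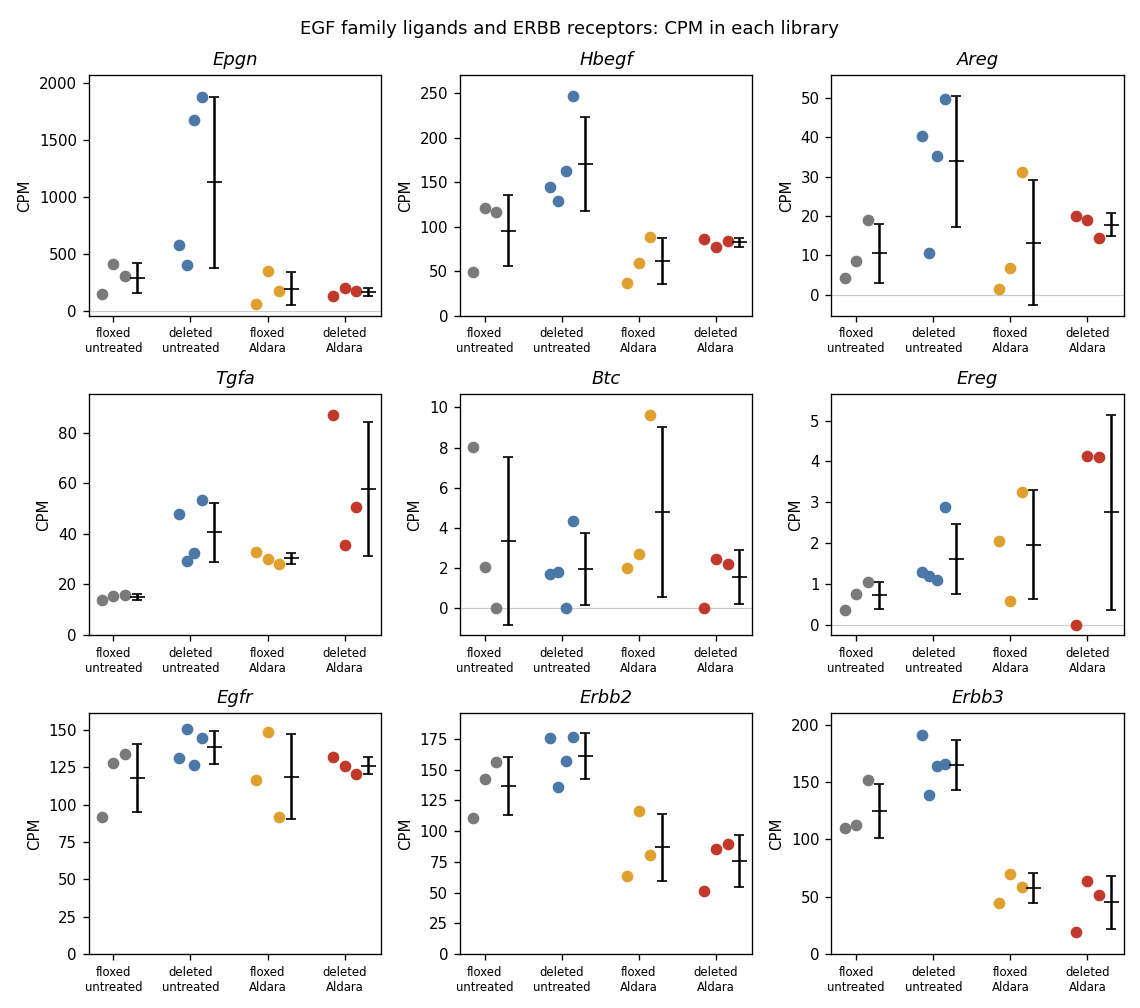
CPM of the 6 ligands and 3 receptors in every library, by group; points are libraries, and the bars at their right give mean and SD (n = 3, or 4 for deleted untreated). Erbb3 lies at 109.5 CPM or more in all untreated and at 70.2 CPM or less in all Aldara libraries, whereas Egfr spans 91.6 to 150.5 CPM with no separation.

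Egfr itself, the receptor of all 6 ligands, passed in no comparison. It read 91.7, 128 and 133.8 CPM in untreated floxed control, 131, 150.5, 126.8 and 144.7 CPM in untreated Il12rb2-deleted, 116.2, 148.3 and 91.6 CPM in floxed control after Aldara, and 131.8, 126 and 120.2 CPM in Il12rb2-deleted libraries after Aldara. All 4 groups overlapped with each other. The averaged Aldara change was -0.06 on the log2 scale, with a 95% interval of -0.38 to 0.26 (edgeR adjusted p = 0.81), so a rise of more than 1.19-fold or a loss to less than 0.769 of the untreated level lay outside that interval. The count of Egfr may hold reads of the antisense gene Egfros.

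Erbb2, the partner receptor, fell. Untreated libraries read 111, 142.2 and 156.6 CPM in floxed control and 175.4, 136.2, 157.3 and 176.2 CPM in Il12rb2-deleted keratinocytes. After Aldara the values were 63.3, 116.8 and 81.0 CPM in floxed control and 51.5, 85.7 and 89.6 CPM in Il12rb2-deleted libraries. Of the 6 Aldara libraries, 5 were below every untreated one, and the exception was floxed control Aldara replicate 2 at 116.8 CPM. The log2 change was -1.09 in Il12rb2-deleted keratinocytes (SE 0.26, edgeR adjusted p = 0.00973), -0.65 in floxed control (SE 0.27, edgeR adjusted p = 0.164), and -0.87 averaged over both (SE 0.18, edgeR adjusted p = 0.00282). Mien1, a protein-coding gene on the opposite strand, overlaps Erbb2.

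Erbb3, the neuregulin receptor, changed most among the receptors and was the member whose treatments were apart in both genotypes. Its CPM was 109.5, 112.2 and 151.9 in untreated floxed control and 191.3, 138.4, 163.9 and 166 in untreated Il12rb2-deleted libraries. It was 44.6, 70.2 and 58.8 CPM in floxed control after Aldara and 19.7, 63.6 and 52.0 CPM in Il12rb2-deleted libraries after Aldara. Every Aldara library was below every untreated one, and Il12rb2-deleted Aldara replicate 1 was the lowest. Erbb3 fell 3.65-fold in Il12rb2-deleted keratinocytes (log2 change -1.87, SE 0.33, edgeR adjusted p = 0.00191) and 2.80-fold on average (log2 change -1.49, SE 0.23, edgeR adjusted p = 0.000354). In floxed control the log2 change was -1.11 (SE 0.34, edgeR adjusted p = 0.0591), and DESeq2 (adjusted p = 0.0122), limma voom (adjusted p = 0.0246) and edgeR with a robust dispersion (adjusted p = 0.0485) called it there. Without Il12rb2-deleted Aldara replicate 1 the averaged change was -1.31. Erbb3 is also expressed by melanocytes and Schwann cells. Their 8 markers summed to 119 to 308 and 41.5 to 199 CPM in the untreated floxed control and Il12rb2-deleted groups, and to 103 to 189 and 38.5 to 99.7 CPM in the Aldara groups. The part of these cells in the Erbb3 result was not tested.

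Relative to Egfr in the same library, both partner receptors stood lower after Aldara. The ratio of Erbb2 to Egfr, in RPKM, was 1.97 to 2.91 in the 7 untreated libraries and 0.848 to 1.92 in the 6 Aldara libraries. Those ranges nearly touch, at untreated Il12rb2-deleted replicate 2 (1.97) and floxed control Aldara replicate 3 (1.92). The ratio of Erbb3 to Egfr was 1.65 to 2.75 untreated and 0.282 to 1.21 after Aldara, again without overlap. The ratio of Erbb3 to Erbb2 was 0.683 to 0.944 untreated and 0.332 to 0.643 after Aldara. Summed over the 3 receptors, transcripts stood at 64.9 ± 10.1 RPKM (SD, n = 7) untreated and 35.0 ± 7.66 RPKM (SD, n = 6) after Aldara. Egfr made up 17.7 ± 2.14% of the sum untreated and 31.9 ± 8.04% after Aldara, while the Erbb2 share was 44.6 ± 1.79% and 44.1 ± 3.41% and the Erbb3 share 37.6 ± 2.72% and 23.9 ± 5.65%. These ratios were given as descriptions, without a test.

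**Figure D3:**
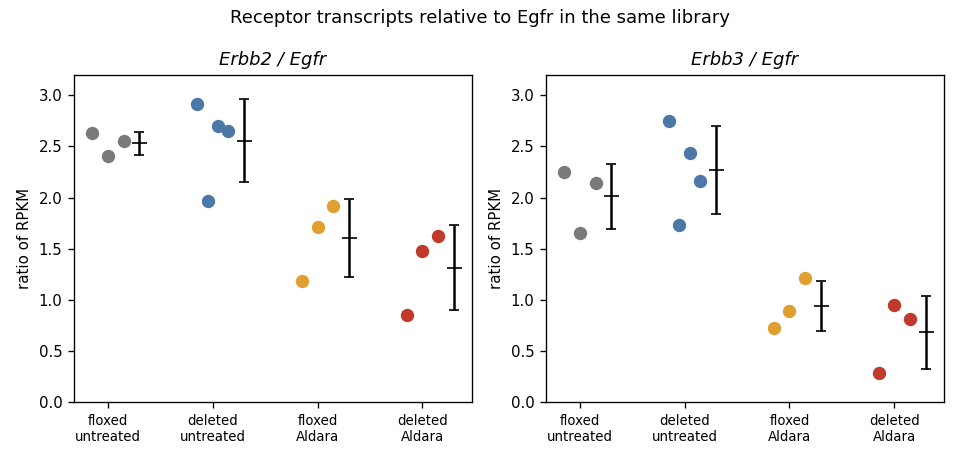
Ratio of Erbb2 (left) and Erbb3 (right) to Egfr, each in RPKM, in every library; points are libraries and bars give mean and SD. All Aldara ratios lie below all untreated ones, and the lowest, 0.848 and 0.282, both come from Il12rb2-deleted Aldara replicate 1.

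Counted over the 9 genes, edgeR called none in floxed control, where 7.05% of all genes tested were called, 4.15% higher and 2.9% lower. At an unadjusted p under 0.05 there were 3 (Tgfa, Erbb2 and Erbb3), where 3411 of the 16051 genes reached that level. DESeq2, which called 2022 genes, called 2 members (Tgfa and Erbb3), and limma voom, which called 1578 genes, called 1 (Erbb3). In Il12rb2-deleted keratinocytes 3 of 9 were called, all lower (Epgn, Erbb2 and Erbb3), where 15.5% of all genes were called, 7.81% higher and 7.69% lower. In the averaged comparison 1 rose (Tgfa) and 4 fell (Epgn, Hbegf, Erbb2 and Erbb3), where 24.9% of all genes were called, 13% higher and 11.9% lower. The median log2 change of the 9 was 0.01 in floxed control, -0.93 in Il12rb2-deleted and -0.31 on average, beside -0.13, -0.09 and -0.15 over all genes tested. Groups did not overlap in CPM for 2 members in floxed control (Tgfa higher, Erbb3 lower), where 27.8% of all genes did not overlap. In Il12rb2-deleted libraries they did not overlap for 4 (Hbegf, Epgn, Erbb2 and Erbb3, all lower), where the share was 29% in either direction and 14.8% lower. Over all 7 untreated against all 6 Aldara libraries Erbb3 alone did not overlap, where the share was 11.8% in either direction, 6.29% higher and 5.48% lower.

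**Figure D4:**
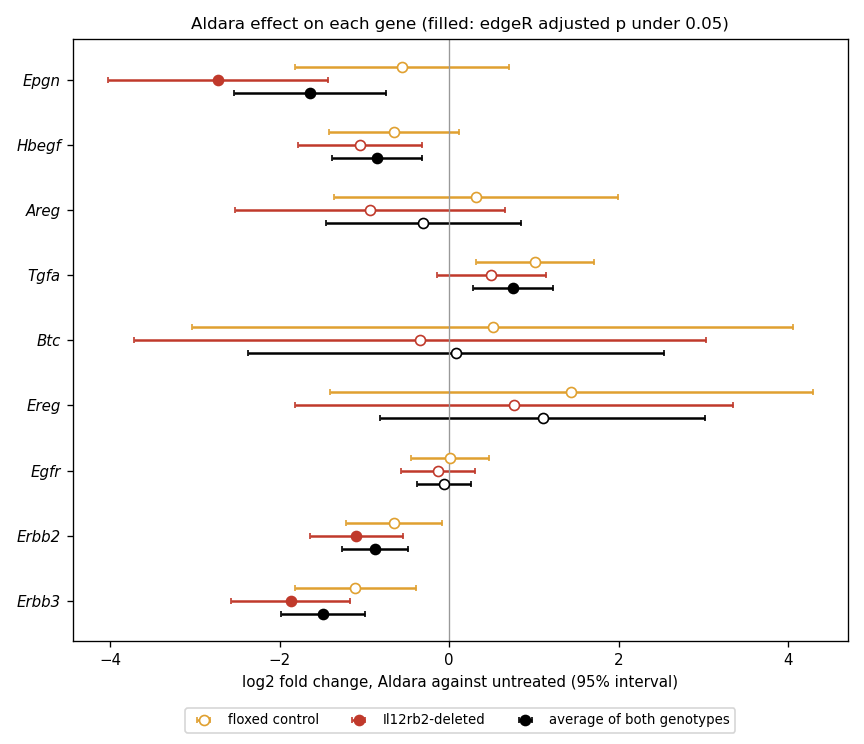
Log2 fold change of Aldara against untreated with its 95% interval for each ligand and receptor, in floxed control, in Il12rb2-deleted and averaged over both; filled points have an edgeR adjusted p under 0.05. In Il12rb2-deleted keratinocytes Epgn (-2.73), Erbb3 (-1.87) and Erbb2 (-1.09) are filled, the floxed control points are all open, and Egfr sits at -0.06 on average.

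Between genotypes without treatment, 5 of 6 ligands had a positive log2 difference (all but Btc), but edgeR called none of the 9, as it called 0% of all genes. At an unadjusted p under 0.05 there were 4 members: Tgfa with a log2 difference of 1.44 (SE 0.32, unadjusted p = 0.000373, adjusted p = 0.874), Epgn with 1.96 (SE 0.59, unadjusted p = 0.00449, adjusted p = 1), Hbegf with 0.83 (unadjusted p = 0.0273) and Areg with 1.68 (unadjusted p = 0.0462). Over all genes 599 reached that level. DESeq2 called 22 genes, among them Tgfa (adjusted p = 0.0218), and no other member. All 4 Il12rb2-deleted libraries exceeded all 3 floxed control ones for Tgfa, Hbegf and Ereg, 3 of 9 members, where 6.03% of all genes did not overlap in either direction and 2.77% were higher. Ereg was near the limit of detection, and its nearest values were 1.04 CPM in floxed control and 1.09 CPM in Il12rb2-deleted libraries. Its log2 difference was 1.16 (SE 1.27, edgeR unadjusted p = 0.375). For the receptors the log2 differences were 0.23 for Egfr, 0.24 for Erbb2 and 0.41 for Erbb3, with intervals that include 0. The summed basal keratinocyte markers, 25800 to 45700 CPM in floxed control and 40200 to 68300 CPM in Il12rb2-deleted libraries, moved in the same direction, and their part was not tested.

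After Aldara, none of the 9 differed between genotypes by edgeR, which called 0% of all genes. DESeq2 called 23 genes and no member. At an unadjusted p under 0.05 there were 690 genes and 1 member, Tgfa, with a log2 difference of 0.93 (SE 0.33, unadjusted p = 0.012, adjusted p = 0.982). Its 3 Il12rb2-deleted libraries (35.4 to 87.1 CPM) were above the 3 floxed control ones (28.2 to 32.7 CPM), 1 of 9 members, where 9.09% of all genes did not overlap in either direction and 4.37% were higher. Without Il12rb2-deleted Aldara replicate 1 that difference was 0.50. Epgn stood at a log2 difference of -0.21 (95% interval -1.47 to 1.05) after Aldara. No member was called for the interaction, the difference between the Aldara effects of the genotypes, where edgeR called 0% of all genes, DESeq2 called 2 genes and no member, and 539 genes with 1 member (Epgn) reached an unadjusted p under 0.05.

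Of the other ligands and the remaining receptor of the family (Egf, Nrg1 to Nrg4 and Erbb4), 2 of 6 tested rose and none fell, in either genotype and on average, where 4.15% of all genes rose in floxed control, 7.81% in Il12rb2-deleted keratinocytes and 13% on average. Nrg4, which encodes a neuregulin that binds Erbb4, read 26.4, 19.0 and 20.2 CPM in untreated floxed control and 9.34, 15.5, 17.7 and 12.9 CPM in untreated Il12rb2-deleted libraries. It read 69.2, 80.1 and 34.2 CPM in floxed control after Aldara and 66.7, 62.3 and 89.5 CPM in Il12rb2-deleted libraries after Aldara, above every untreated value. Its averaged log2 change was 1.94 (SE 0.23, edgeR adjusted p = 5.58e-05). The floxed control call (log2 change 1.48, edgeR adjusted p = 0.0163) was lost in 4 of 13 fits that left out 1 library: untreated floxed control replicate 2 or 3, or floxed control Aldara replicate 1 or 2 (highest edgeR adjusted p = 0.0898). Fbxo22 overlaps Nrg4 on the opposite strand. Nrg2, which encodes a ligand of Erbb3 and Erbb4, was at most 1.86 CPM in untreated libraries and 2.04 to 17.8 CPM after Aldara, with an averaged log2 change of 3.64 (SE 0.66, edgeR adjusted p = 0.000986). Untreated libraries held only 3 to 29 counts of Nrg2, near the limit of detection, so the size of this change is uncertain. The floxed control call of Nrg2 (3.77, edgeR adjusted p = 0.032) was lost without any of the same 4 libraries. Egf had an averaged log2 change of -2.26 (edgeR adjusted p = 0.118) and Nrg1, an Erbb3 ligand, of -0.85 (edgeR adjusted p = 0.298).

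Of a list of sheddases, carriers of ligand precursors and the sheddase inhibitor Timp3, 10 of 11 genes were tested. On average 4 of these, Timp3 among them, fell and none rose, where 11.9% of all genes fell and 13% rose. The sheddase genes Adam10 and Adam17 were not called in either genotype or on average. The list median, with Timp3 included, was -0.67 on the log2 scale, beside -0.15 over all genes. Rhbdl2, a rhomboid protease, fell by 2.28 (SE 0.32, edgeR adjusted p = 0.000166), and its CPM was 19.8 to 55.9 in untreated and 4.72 to 18.4 in Aldara libraries. Adam8 fell by 2.36 (SE 0.40, edgeR adjusted p = 0.000656) and Adam15 by 1.06 (SE 0.20, edgeR adjusted p = 0.00115). Timp3, which encodes an inhibitor of the sheddase ADAM17, fell by 1.26 (SE 0.33, edgeR adjusted p = 0.0114). In floxed control alone 2 of the 10 fell (Adam15 and Rhbdl2), where 2.9% of all genes fell. These calls were lost in 6 and 4 of the fits that left out 1 library of that genotype. In Il12rb2-deleted keratinocytes the same 4 fell as on average, where 7.69% of all genes fell. Of these 4, the Adam15 call was lost without untreated replicate 1 or 4 or Aldara replicate 1 or 2 of that genotype (highest edgeR adjusted p = 0.0927). The Timp3 call was lost without untreated Il12rb2-deleted replicate 2 or Aldara replicate 1 or 3 (highest edgeR adjusted p = 0.116).

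Feedback inhibitors of the receptor pathway moved both ways: on average 5 of 22 rose and 5 fell, where 13% of all genes rose and 11.9% fell, with a list median of -0.02 beside -0.15 over all genes. Spry1, an inhibitor of Ras signalling, read 40.8 to 131.1 CPM in untreated and 6.65 to 15.9 CPM in Aldara libraries, and it fell by 2.71 on the log2 scale (SE 0.29, edgeR adjusted p = 3.02e-05). Dusp1, a phosphatase of MAP kinases, fell by 2.11 (SE 0.37, edgeR adjusted p = 0.000727), and Cblb, a ubiquitin ligase, by 1.28 (SE 0.20, edgeR adjusted p = 0.000325). Dusp4, another MAP kinase phosphatase, rose by 2.30 (SE 0.42, edgeR adjusted p = 0.000986). Errfi1 and Cblc also fell, and Spry4, Spred1, Socs5 and Rnf41 also rose. In floxed control 1 rose (Dusp4) and 3 fell (Spry1, Cblb and Dusp1), where 4.15% of all genes rose and 2.9% fell. In Il12rb2-deleted keratinocytes 3 rose and 5 fell, where 7.81% of all genes rose and 7.69% fell. Leaving out 1 library kept the floxed control call of Spry1 in all 13 fits. It ended that of Dusp1 for untreated floxed control replicate 2 or 3 and floxed control Aldara replicate 1 or 2 (highest edgeR adjusted p = 0.134), and that of Dusp4 for these and untreated floxed control replicate 1 (highest 0.112). The Cblb call was lost in 9 fits (highest 0.177), and held only without untreated floxed control replicate 1, untreated Il12rb2-deleted replicate 2 or 3, or Il12rb2-deleted Aldara replicate 1. In Il12rb2-deleted keratinocytes Dusp4 was lost without untreated replicate 3 or 4 or Aldara replicate 3 (highest 0.11).

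Of 29 adaptors and cascade kinases, 3 rose and 2 fell on average, where 13% of all genes rose and 11.9% fell, with a list median of -0.02 beside -0.15 over all genes. Map2k1, the kinase that activates ERK, rose in both genotypes and by 0.81 on average (SE 0.14, edgeR adjusted p = 0.000679), and Akt1 rose by 0.82 (SE 0.18, edgeR adjusted p = 0.0032). The floxed control call of Map2k1 (edgeR adjusted p = 0.0224) was lost without untreated floxed control replicate 2 or 3 or floxed control Aldara replicate 1 or 2 (highest 0.121), and the Il12rb2-deleted call of Akt1 without Aldara replicate 3 of that genotype (0.0931). The falls of the adaptor Gab1 (-1.33, SE 0.42, edgeR adjusted p = 0.0289) and of Pik3r1 (-0.66, SE 0.21, edgeR adjusted p = 0.0304) were less steady, and leaving out 1 library ended them in 4 and 8 of 13 fits. For Gab1 these libraries were untreated floxed control replicate 2, floxed control Aldara replicates 1 and 2 and Il12rb2-deleted Aldara replicate 2 (highest edgeR adjusted p = 0.0733). For Pik3r1 they were replicates 1 and 2 of all 4 groups (highest edgeR adjusted p = 0.0782). In floxed control 1 of the 29 rose and none fell, where 4.15% of all genes rose and 2.9% fell. In Il12rb2-deleted keratinocytes 3 rose and none fell, where 7.81% of all genes rose and 7.69% fell.

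Among 26 immediate and later targets of the pathway, 4 rose and 9 fell on average, where 13% of all genes rose and 11.9% fell, with a list median of -0.82 beside -0.15 over all genes. Fos, an immediate-early AP-1 gene, read 2451 to 6782 CPM in untreated and 877.1 to 2125 CPM in Aldara libraries and fell by 1.63 on the log2 scale (SE 0.26, edgeR adjusted p = 0.000409). Fosl1 fell by 2.52 (SE 0.41, edgeR adjusted p = 0.000455). Egr3 rose by 1.30 (SE 0.19, edgeR adjusted p = 0.000239) and Etv4, a target of ERK signalling, by 1.90 (SE 0.30, edgeR adjusted p = 0.000389). Fosb, Jun, Junb, Ier2, Ier3, Plau and Ptgs2 were the other genes that fell, and the stress keratins Krt6a and Krt6b the others that rose. In floxed control 2 of the 26 rose and 1 (Fos) fell, where 4.15% of all genes rose and 2.9% fell. In Il12rb2-deleted keratinocytes 2 rose and 9 fell, where 7.81% of all genes rose and 7.69% fell. The floxed control call of Fos (edgeR adjusted p = 0.0104) was lost without untreated replicate 2 or Aldara replicate 1 of that genotype (highest 0.0582). In Il12rb2-deleted keratinocytes Fos was lost without untreated replicate 1 or Aldara replicate 1 or 2 (highest 0.081), and Egr3 without untreated replicate 1, 3 or 4 or Aldara replicate 2 or 3 (highest 0.162). None of the genes in these 5 lists was called between genotypes or for the interaction by edgeR, which called 0% of all genes there.

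**Figure D5:**
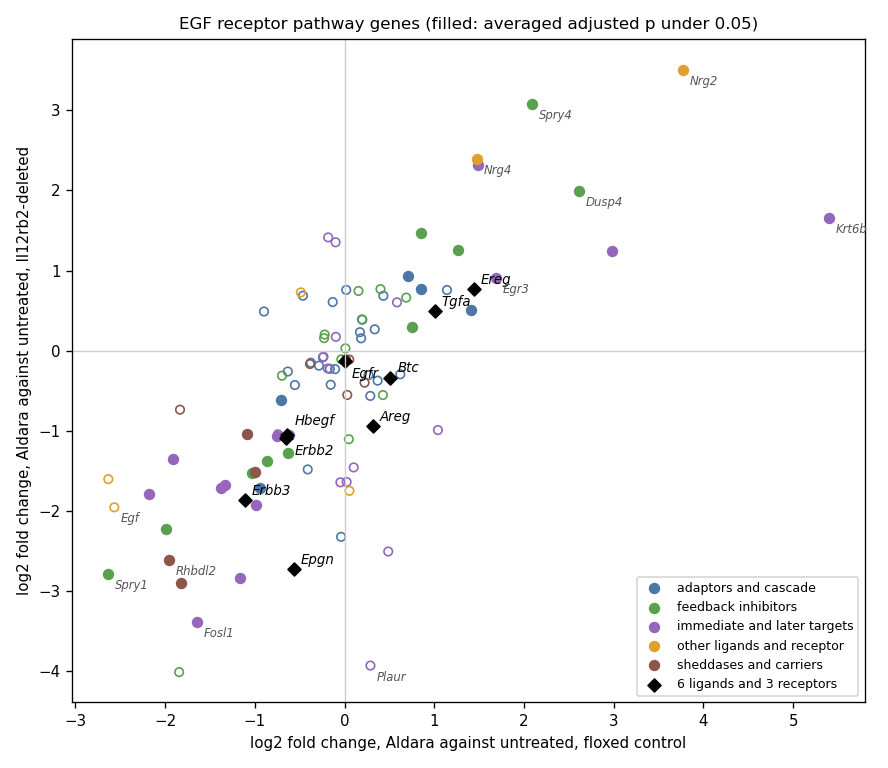
Log2 fold change of Aldara against untreated in floxed control (horizontal) and Il12rb2-deleted keratinocytes (vertical) for the genes of 5 pathway lists, coloured by list, with the 9 ligands and receptors as black diamonds; filled circles have an averaged edgeR adjusted p under 0.05. Nrg2 (3.77 and 3.51) lies at the upper right, Spry1 (-2.63 and -2.79) at the lower left, and Epgn (-0.56 and -2.73) below the other diamonds.

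Within the chromosome 5 cluster, Epgn fell on average and Ereg, Areg and Btc did not pass. Mthfd2l, the gene just upstream of Epgn, had an averaged log2 change of -0.07 (edgeR adjusted p = 0.897). Further upstream the chemokine gene Cxcl1 rose by 1.35 on the log2 scale (edgeR adjusted p = 0.00265) and Cxcl2 by 2.32 (edgeR adjusted p = 0.0465). Cxcl2 overlapped between treatments in both genotypes, at 0.32 to 1.31 CPM untreated and 0.487 to 3.02 CPM after Aldara in floxed control, and at 1.56 to 2.40 and 1.28 to 54.4 CPM in Il12rb2-deleted libraries. Parm1, beyond Btc, did not pass (0.61, edgeR adjusted p = 0.185).

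The genes most like each called member were sought among 9736 genes by the root mean square difference of centred log2 CPM over the 13 libraries, as a description. For Epgn these were Ifrd1 (0.37), Thbs1 (0.42) and Rnd3 (0.50), where the median over all genes was 1.43. Hbegf was closest to the NF-kB regulators Nfkbiz (0.23) and Nfkbia (0.24) and to Adamts1 (0.25), against a median of 0.89. Erbb2 was closest to Arl4a (0.15), Cntrl (0.18) and Pfkl (0.19), against 0.76 (median), and Erbb3 to Sun1 (0.18), Vwa5a (0.23) and Wls (0.24), against a median of 1.05. For Tgfa they were Llph and Urah, both at 0.41, and Nmd3 at 0.42, against a median of 0.88. These likenesses share libraries and depth and carry no test.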

How the data were processed

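The authors deposited 1 table of unnormalized whole-number read counts, with genes in rows and the 13 samples in columns. Per the labels' protocols, Smart-seq2 was used, which marks neither strand nor molecules, with single-end reads. STAR, featureCounts, Subread and build GRCm38 are named per the submitters' processing notes; the strand setting and annotation release were not given in the sources used here, so overlapping genes may share reads. Library totals were 5830034 to 22232478 counts, and of 25746 genes 1394 had none.

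Groups came from the labels. Genes were kept with filterByExpr of edgeR 4.0.16 (minimum count 10; 16051 tested), scaled by TMM and fitted by the quasi-likelihood model with 1 coefficient per group over all 13 libraries (common dispersion 0.424). P-values were adjusted by Benjamini-Hochberg over all genes tested, with calls made below 0.05. The averaged comparison weights both genotypes equally. SEs were derived from the F statistic and the log2 change. CPM used TMM-scaled totals. RPKM used union exon lengths of GENCODE M21. Promoters came from RefSeq (GRCm38.p6), and motifs were letter matches.

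Alternatives were RLE factors, DESeq2 1.42.0, limma 3.58.1 voom, no filter, robust dispersion, a replicate block, longest-transcript lengths, and fits without single libraries or without the 3 high in Gm10800. The main edgeR fit was tested on simulated data, for the Aldara comparison in floxed control alone. The other comparisons and methods were not tested in this way. All 9 members were named, with up to 4 genes of each pathway list, those with the smallest p in the averaged comparison; the rule also took Il12rb2, the chromosome 5 neighbours and, for called members, the 3 genes with the nearest pattern. Gm10800, overlapping genes and list members named without values were chosen after their values were seen. Members and lists were chosen with earlier results of these data known. No libraries of a group were duplicates by a chi-square comparison of their counts.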

Additional observations from a re-analysis of the deposited data

Results flagged for a closer look

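One value stood apart from its group. Ereg was at 2.88 CPM in Il12rb2-deleted untreated replicate 4, while the other 3 libraries of that group lay between 1.09 and 1.29 CPM, so that the gap to the nearest library took 0.89 of the whole range. Only this group, with 4 libraries, was large enough for the check, which was made for each of the 9 genes, and chance flags about 1 in 20 groups. The same library also read highest of its group for Areg (49.6 CPM), Hbegf (247 CPM), Tgfa (53.2 CPM), Btc (4.36 CPM) and Epgn (1876 CPM). Of the receptors it was highest for Erbb2 (176.2 CPM, with 175.4 CPM in replicate 1) but not for Egfr or Erbb3.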

How the results depend on the processing

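Epgn, Erbb2 and Erbb3 were called lower in Il12rb2-deleted keratinocytes and on average under every alternative run. The count of genes called in floxed control (1132) was 2022 with DESeq2, 270 when the 3 Gm10800-high libraries were left out, and 215 (without floxed control untreated replicate 2) to 1451 with single libraries left out. The Il12rb2-deleted count (2489) was 1466 without the 3 libraries and 1650 to 2764 with single libraries left out, and the averaged count (3994) was 2622 and 3142 to 4004. Between genotypes DESeq2 called 22 genes untreated, 23 after Aldara and 2 for the interaction, the fit without a filter called 3 untreated and 1 after Aldara, and leaving out single libraries gave 0 to 1 for the interaction. No label says whether replicate numbers pair the samples, and the correlations did not settle it. Of 18 same-number pairs 6 correlated above 0.1 (range -0.163 to 0.421), with a median of -4e-04 against -0.00216 for other pairs. With the replicate block 831, 1919 and 3581 genes were called in floxed control, Il12rb2-deleted and on average, and no member call changed.

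Values that changed sign were all uncalled. In floxed control Areg was -0.31 with limma voom, and Egfr -0.014 with RLE factors, -0.015 with DESeq2, -0.021 with limma voom and -0.0015 with the block. In Il12rb2-deleted keratinocytes Ereg was -0.47 with limma voom and Btc 0.75 with the block. On average Btc was -0.12 without the 3 libraries, and Egfr 0.023 with no filter. Between genotypes Btc was 0.78 untreated with limma voom, and after Aldara Ereg was -0.71 and Epgn 0.13 with limma voom, and Epgn 0.0045 with the block. Leaving out single libraries, log2 changes ran as follows. In floxed control Areg ran from -1.38 to 1.07, Btc from -0.52 to 2.27 and Egfr from -0.18 to 0.17. In Il12rb2-deleted keratinocytes Btc ran from -0.82 to 0.43. On average Areg ran from -1.16 to 0.061, Btc from -0.44 to 0.96 and Egfr from -0.16 to 0.015. Between genotypes Btc ran from -1.54 to 1.00 untreated, and after Aldara Areg from -0.11 to 2.12, Epgn from -0.62 to 0.51, Egfr from -0.072 to 0.27, Erbb2 from -0.39 to 0.064 and Nrg4 from -0.037 to 0.49. For the interaction Areg ran from -2.02 to 0.44, Btc from -2.62 to 0.18 and Egfr from -0.30 to 0.042. The cause of these shifts was not tested. With longest-transcript lengths the Hbegf share of the ligand sum was 15.6, 9.92, 16.1 and 18.7% in floxed control untreated, Il12rb2-deleted untreated, floxed control Aldara and Il12rb2-deleted Aldara, against 10.3, 6.40, 10.9 and 12.7%, and the Epgn share in untreated floxed control was 77.8%. DESeq2 gave no adjusted p for Ereg and Btc between untreated genotypes. Counts of Ereg and Btc reached at most 67 and 198 in a library.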
